A study of Mus musculus with 6 samples.

Results

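Calcium pumps are P-type ATPases that spend ATP to move calcium out of the cytosol after a signal. They form 3 families. The plasma membrane calcium ATPases (PMCA, genes Atp2b1 to Atp2b4) expel calcium across the cell surface, the sarco/endoplasmic reticulum ATPases (SERCA, genes Atp2a1 to Atp2a3) refill the internal store, and the secretory pathway ATPase gene Atp2c1 encodes a pump that loads the Golgi with calcium and manganese. In neurons and neuroendocrine cells these pumps end the calcium rises that drive firing and hormone release, and the V1 receptors for arginine vasopressin (AVP) are known to couple to Gq proteins and to release calcium from that store. The 8 genes were taken by symbol from 24391 gene rows, and 7 of them were tested among 14163 rows that passed the filter on low counts. The genes were selected on their family membership with their levels and fold changes between AVP-treated and control cultures already known, so their values in that comparison are a description and no test of them is offered.

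The libraries came from GT1-7, an immortalised mouse hypothalamic line labelled as GnRH neuron-like and wild type in genotype. In the AVP group 3 cultures received AVP at 200 pg/mL for 6 h, and in the control group 3 cultures received vehicle, although another label calls these controls untreated. All 6 cultures had been starved of serum for 12 h before treatment, carry 1 batch label and are described as biological replicates of a single cell line. The line gives the response of transformed cells in culture, and the label's defining transcript was close to absent: Gnrh1 had 46 counts over the AVP libraries and 51 over the control libraries.

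Libraries held 35597040 to 37418318 counts with AVP and 34908867 to 36826004 counts in controls, and a count of 3 was worth between 0.0802 and 0.0859 CPM. CPM is a count relative to the library total, and the levels below are further scaled with TMM factors, which correct for differences in composition. More genes were detected with AVP, 16674 to 16739 against 16166 to 16403 in control libraries, and the nuclear RNA Malat1 was higher, at 1499 to 1724 against 499 to 1106 CPM of total counts. The part of either measure in the pump values was not tested. Control replicate 1 stood apart from the other controls. Per degree of freedom, the chi-square of its counts against theirs was 23.4 and 34.8, against 9.89 between the other controls, and it had the lowest Malat1 level. The ribosomal RNA precursor Rn45s took 0.995% of its counts, against 0.211 to 0.245% in AVP libraries and 0.184 and 0.139% in control replicates 2 and 3. Without it the same 5 pump genes were called in the same directions, with log2 fold changes of 3.39 for Atp2b4, 0.58 for Atp2b2, 0.26 for Atp2c1, -2.17 for Atp2a3 and -0.14 for Atp2b1. Of the 10 neuronal markers listed for a check, the sum lay between 1974 and 2068 CPM with AVP and between 2245 and 2388 CPM in controls. Most of that sum was Syp, at 722 CPM with AVP and 971 in controls, and Chga, at 529 and 783. The list itself was split: of 9 tested genes, 3 were higher with AVP (Isl1, Tubb3 and Map2) and 2 lower (Syp and Chga). Its median log2 fold change was 0.06. Across all tested genes 28.7% were called higher and 28.8% lower at an adjusted p under 0.05, so nothing is read from the list's count. Astrocyte markers summed to 1.77 to 2.33 CPM with AVP and 1.18 to 1.30 CPM in controls, most of it Aldh1l1. Microglia and leukocyte markers summed to 5.33 to 7.59 CPM with AVP and 2.68 to 5.11 CPM in controls. Most of that was Cd68, at 6.37 CPM with AVP and 3.86 CPM in controls. Fibroblast, mural and endothelial markers summed to 5.18 to 6.28 CPM with AVP and 7.60 to 9.29 CPM in controls. Most of that was Col1a2, at 4.53 CPM with AVP and 7.85 CPM in controls. Oligodendrocyte markers summed to 17.1 to 19.1 CPM with AVP and 47.9 to 53.5 CPM in controls, nearly all of it Mbp, with Mog and Mag at 0 in every library. Markers of skeletal and cardiac muscle, the tissues in which Atp2a1 and Atp2a2 are best known, summed to 1.35 to 1.93 CPM with AVP and 0.923 to 1.38 CPM in controls, with Myh1 and Myod1 at 0. The part of these marker differences in the pump values was not tested.

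All P-type pumps carry an aspartate that takes up the phosphate of ATP in each transport cycle, and the coding sequence around it is a direct view of what the members share. It is shown for 6 of the 8 genes. The stretches of 45 bases below come from the GENCODE M21 transcripts (GRCm38) with the longest complete coding sequence, each within 1 exon, and the 15 capital bases are the codons of the phosphorylation motif, starting with the aspartate codon.
Atp2b1: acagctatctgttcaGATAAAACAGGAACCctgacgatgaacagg
Atp2b2: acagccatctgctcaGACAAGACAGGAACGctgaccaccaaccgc
Atp2b4: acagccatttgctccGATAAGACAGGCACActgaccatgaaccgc
Atp2a1: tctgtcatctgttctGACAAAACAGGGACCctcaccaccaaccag
Atp2a3: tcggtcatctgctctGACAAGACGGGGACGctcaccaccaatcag
Atp2c1: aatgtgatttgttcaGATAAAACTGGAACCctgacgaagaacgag
The motif's codons were found in frame exactly 1 time in each of the 6 genes, in exon 10 of Atp2b1 and Atp2b4, exon 13 of Atp2b2 and Atp2c1, exon 9 of Atp2a1 and exon 8 of Atp2a3. Over the 15 pairs of these genes, 10 to 14 of the 15 capital bases were identical, with 14 between Atp2b1 and Atp2c1. Across the whole stretch, 35 to 39 of 45 bases matched within a family and 27 to 36 between families, so the nucleotide sequences differ even where the encoded motif does not.

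Between AVP-treated and control cultures, genes of the PMCA family differed in opposite directions. The only fall among them, that of Atp2b1, was small and lost its call when libraries were scaled by size alone. Atp2b4 was 9.68-fold higher with AVP, Atp2b2 1.53-fold and Atp2c1 1.22-fold higher, whereas Atp2a3 was 4.38-fold lower and Atp2b1 1.11-fold lower. Of the 7 tested members, 3 rose and 2 fell at an adjusted p under 0.05 in the edgeR fit over all genes, and 2 did not pass. Across all tested genes 57.5% were called at that threshold, 28.7% higher and 28.8% lower, and nothing is read from the members' count beside it. The groups did not overlap for 5 of the 7 members, against 63.4% of all tested genes. The median log2 fold change was 0.18 over the tested members and 0.008 over all tested genes. In bulk RNA, fewer cells with a transcript and less of it per cell cannot be told apart.

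**Figure D1:**
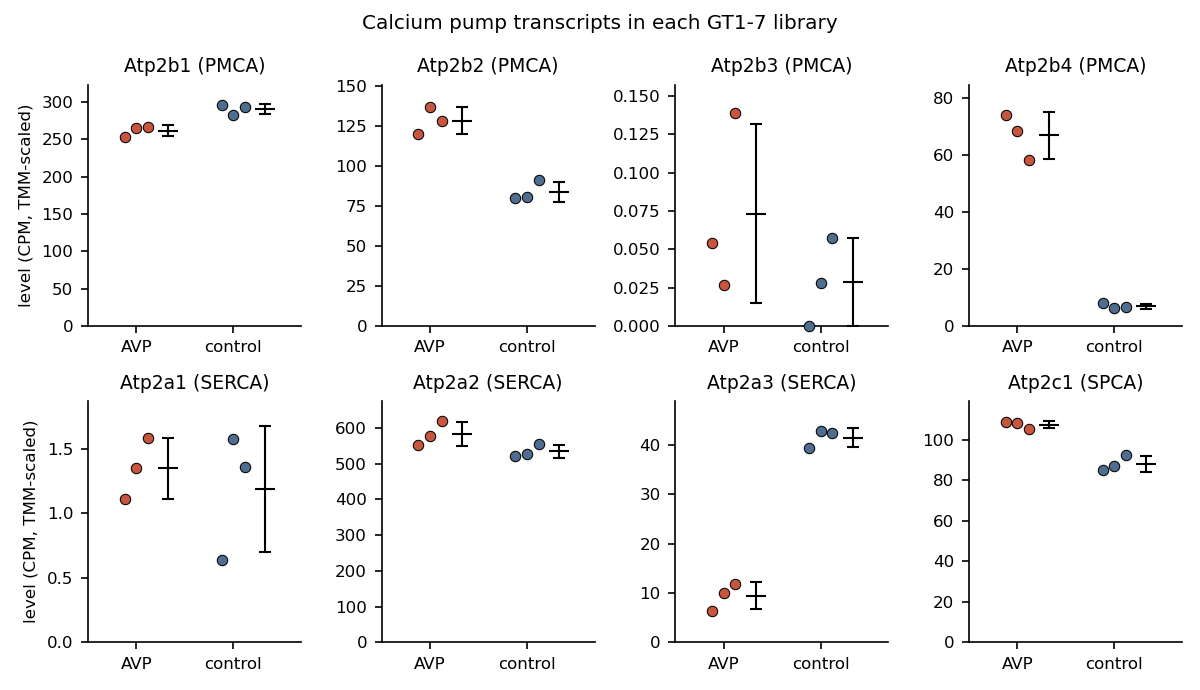
Level of each calcium pump gene in CPM (TMM-scaled, linear axes from 0, a separate scale per gene) in the 3 AVP and 3 control libraries; points are libraries, and the bar beside them is the mean with its SD. Atp2b4 sits between 58.2 and 74.3 CPM with AVP and between 6.27 and 7.96 CPM in controls, and Atp2a3 between 6.42 and 11.9 CPM with AVP and between 39.3 and 42.7 CPM in controls.

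Of the plasma membrane pumps, Atp2b4 encodes PMCA4, a widely expressed pump that is best known in mouse for its need in sperm motility. The gene lies at chr1:133699457-133801041 on the minus strand (GRCm38). Its level was 74.3, 68.4 and 58.2 CPM in AVP replicates 1, 2 and 3, against 7.96, 6.27 and 6.49 CPM in control replicates 1, 2 and 3. Every AVP library thus exceeded every control library by a wide margin, and the spread was similar in proportion, with a coefficient of variation of 12.2% with AVP and 13.3% in controls. The log2 fold change was 3.28 (SE 0.11), the 43rd highest of the 14163 tested genes. Depth was ample for both groups, with 7414 counts over the AVP libraries and 736 over the control libraries.

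Atp2b2 encodes PMCA2, a fast pump of neurons and hair cells whose loss causes deafness and ataxia in mice (chr6:113743831-114042613, minus strand). The 3 AVP libraries held 120.0, 136.6 and 127.9 CPM, against 80.1, 80.3 and 90.9 CPM in the 3 control libraries. The groups did not overlap, and the log2 fold change was 0.61 (SE 0.07). An antisense gene, Gm15083, touches exons of Atp2b2 on the other strand. Whether the counting used strand is not stated, so reads from the antisense gene cannot be told apart from those of Atp2b2.

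Atp2b1, the housekeeping member that encodes PMCA1 (chr10:98914406-99026143, plus strand), was the most abundant PMCA transcript per length in every library. It was measured at 253.7, 264.7 and 267.0 CPM with AVP, against 295.8, 282.5 and 292.9 CPM in controls. All AVP values lay below all control values, but the difference was small, with a log2 fold change of -0.15 (SE 0.05). It lost its call when libraries were scaled by size alone (log2 fold change -0.11) and without AVP replicate 1 (-0.13). Atp2b3, which encodes the neuronal pump PMCA3 (chrX:73503086-73571005, plus strand), was at the limit of detection. It had 2, 1 and 5 counts in the AVP libraries and 0, 1 and 2 in the control libraries, was not tested, and no fold is given.

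Together the 4 PMCA genes summed to 448.1, 469.7 and 453.3 CPM with AVP and to 383.8, 369.1 and 390.3 CPM in controls, a ratio of 1.2. The sums did not overlap. Behind the difference of 75.9 CPM between the means stood 60.1 CPM more of Atp2b4, 44.4 CPM more of Atp2b2 and 28.6 CPM less of Atp2b1. These sums and differences are in CPM and are not weighted by length. Per kb of exon, the make-up of the PMCA transcripts differed as well. Atp2b4 held 16.7 ± 2.09% of them with AVP and 2.15 ± 0.274% in controls (SD, n = 3 each). Atp2b2 held 30.9 ± 1.30% with AVP and 25.2 ± 1.36% in controls, and Atp2b1 52.4 ± 1.44% with AVP and 72.6 ± 1.16% in controls.

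**Figure D2:**
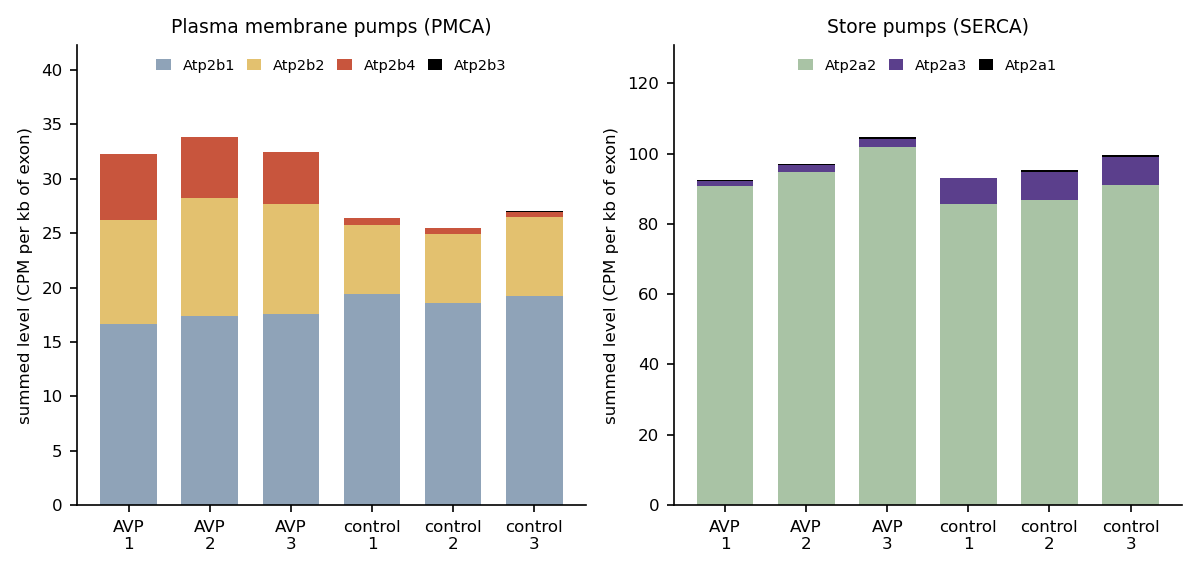
Stacked levels per length (CPM per kb of exon, axes from 0) of the PMCA genes on the left and the SERCA genes on the right, 1 bar per library with AVP libraries first. The Atp2b4 segment is 4.75 to 6.07 CPM per kb in the AVP bars and 0.512 to 0.650 in the control bars, and the Atp2a3 segment is 1.22 to 2.26 in the AVP bars and 7.44 to 8.09 in the control bars.

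Of the store pumps, Atp2a3 encodes SERCA3, which has a low affinity for calcium and is known from blood, endothelial and secretory cells (chr11:72961169-72993044, plus strand). Its level was 6.42, 10.1 and 11.9 CPM in AVP replicates 1, 2 and 3, against 39.3, 42.7 and 42.5 CPM in the control replicates. Every AVP library lay far below every control library, and the log2 fold change was -2.13 (SE 0.17), the 98th lowest of the tested genes. The AVP libraries differed more among themselves than the controls, with a coefficient of variation of 29.5% with AVP and 4.62% in controls. Over the group this rested on 1046 counts with AVP and 4413 in controls.

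Atp2a2 encodes SERCA2, the store pump of most cells, whose human gene is mutated in Darier disease (chr5:122453513-122502225, minus strand). It was measured at 552.4, 576.4 and 619.6 CPM with AVP and at 520.0, 527.6 and 553.8 CPM in controls. The lowest AVP value lay below the highest control value, so the groups overlapped. The log2 fold change of 0.13 (SE 0.05) did not pass. It passed in 5 of 14 alternatives: with library size alone (0.16), upper-quartile factors (0.13) or limma-voom (0.13), and without AVP replicate 1 (0.16) or control replicate 3 (0.14). The gene Gm43361, on the opposite strand, touches exon sequence of Atp2a2, so the caution on strand given for Atp2b2 holds for Atp2a2 too. Atp2a1 encodes SERCA1, the pump of fast skeletal muscle (chr7:126445858-126463108, minus strand). It had 41, 51 and 57 counts with AVP and 23, 56 and 47 in controls, or 1.35 ± 0.234 CPM with AVP and 1.19 ± 0.491 CPM in controls (SD, n = 3 each), and did not pass. Without control replicate 1 the sign of its difference turned, with a log2 fold change of -0.12. The gene span of Rabep2, on the opposite strand, touches exon sequence of Atp2a1, and the exons of Rabep2 were not compared. Rabep2 had 3673 counts with AVP and 2990 in controls, so the few Atp2a1 counts are uncertain.

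The 3 SERCA genes summed to 560.0, 587.8 and 633.1 CPM with AVP and to 560.0, 571.9 and 597.7 CPM in controls. These sums overlapped almost fully. Atp2a2 averaged 49.0 CPM more with AVP and Atp2a3 32.0 CPM less. Per kb of exon, Atp2a3 held 1.81 ± 0.441% of the SERCA transcripts with AVP and 8.19 ± 0.266% in controls, and Atp2a2 97.8 ± 0.485% with AVP and 91.5 ± 0.395% in controls (SD, n = 3 each).

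Atp2c1, the secretory pathway member that encodes SPCA1 and whose human gene is mutated in Hailey-Hailey disease (chr9:105403539-105527319, minus strand), was steady among replicates. It was measured at 108.6, 108.1 and 105.5 CPM with AVP, against 84.9, 86.9 and 92.6 CPM in controls. The groups did not overlap, and the log2 fold change was 0.29 (SE 0.06). It was not called against a fold change of 1.2. The gene Aste1 overlaps exons of Atp2c1 on the opposite strand, and had 1270 counts with AVP and 918 in controls. As the strand setting is not stated, reads from the shared stretch cannot be assigned to either gene with certainty. Atp2c1 itself had 11879 counts with AVP and 9366 in controls.

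**Figure D3:**
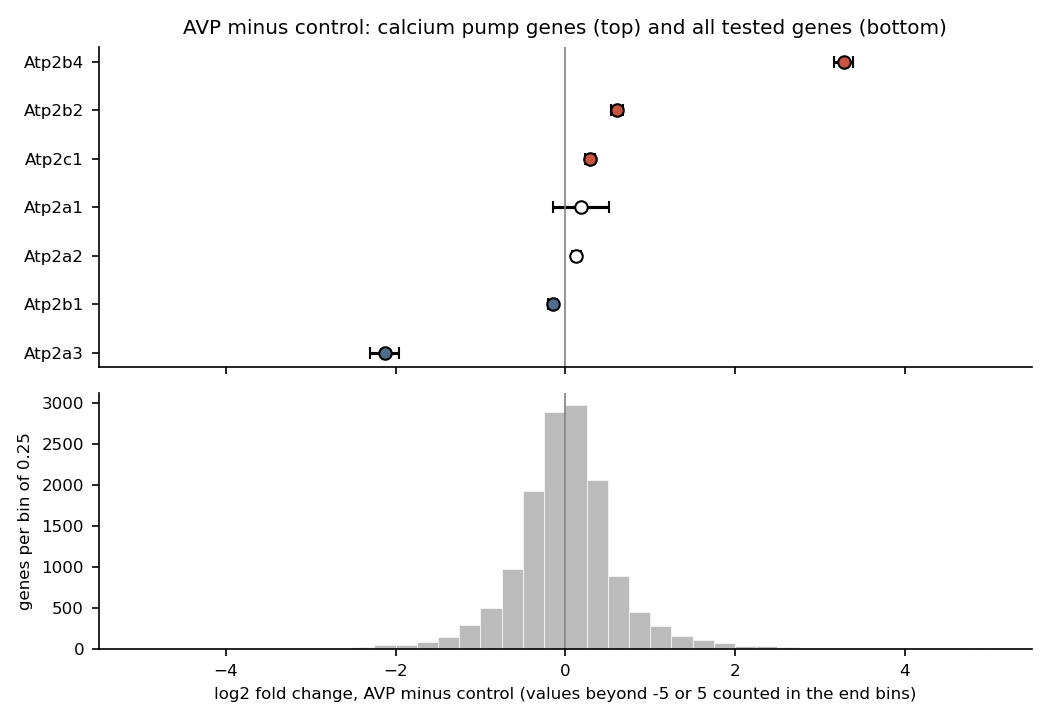
Log2 fold change (AVP minus control) of the 7 tested calcium pump genes with its SE, above a histogram of the same quantity for all 14163 tested genes. Red points rose, blue points fell and white points did not pass the threshold. Atp2b4 at 3.28 and Atp2a3 at -2.13 lie in the thin tails of the histogram, and the other 5 between -0.15 and 0.61 lie in its body.

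The order of the 8 genes was taken per length, as CPM per kb of all annotated exons. Atp2a2 led in both groups, at 95.8 ± 5.60 CPM per kb with AVP and 87.8 ± 2.92 in controls (SD, n = 3 each). Atp2b1 followed at 17.2 ± 0.466 with AVP and 19.1 ± 0.462 in controls, and Atp2c1 at 11.1 ± 0.172 with AVP and 9.09 ± 0.412 in controls. Below them the groups differed in order. With AVP the next places were held by Atp2b2 at 10.2 ± 0.658, Atp2b4 at 5.47 ± 0.667 and Atp2a3 at 1.79 ± 0.530 CPM per kb. In controls they were held by Atp2a3 at 7.86 ± 0.363, Atp2b2 at 6.64 ± 0.489 and Atp2b4 at 0.564 ± 0.0751. Atp2a1 and Atp2b3 came last in both groups. The 3 values of neighbours in these orders did not overlap within either group. The difference between Atp2c1 and Atp2b2 with AVP was close to the spread, with nearest values of 10.9 and 10.8 CPM per kb. In controls Atp2b4 and Atp2a1 were also near each other, with nearest values of 0.512 and 0.453. The order of Atp2a3 and Atp2b2 in controls depended on the length used: per kb of coding sequence Atp2b2 stood at 21.4 and Atp2a3 at 13.3 CPM.

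**Figure D4:**
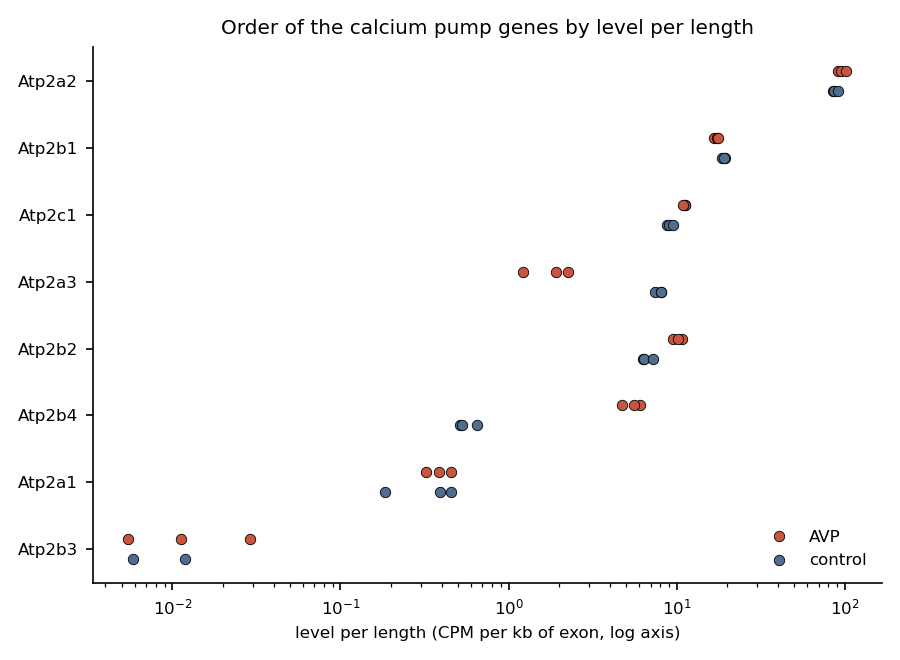
Level per length (CPM per kb of exon, log axis) of the 8 calcium pump genes, ordered by their control mean, with 1 point per library, AVP in red above control in blue. The control library with 0 counts of Atp2b3 is not drawn. Atp2b4 lies at 4.75 to 6.07 CPM per kb with AVP and 0.512 to 0.650 in controls, and Atp2a3 at 1.22 to 2.26 with AVP and 7.44 to 8.09 in controls.

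The promoters of Atp2b4 and Atp2a3 are shown because these members differed most, in opposite directions. Each window runs from 250 bases before to 50 after a transcription start annotated by RefSeq (GRCm38.p6). It is printed on the strand of the gene, with motif matches in capitals.
Atp2b4, chr1:133753698-133753997, minus strand: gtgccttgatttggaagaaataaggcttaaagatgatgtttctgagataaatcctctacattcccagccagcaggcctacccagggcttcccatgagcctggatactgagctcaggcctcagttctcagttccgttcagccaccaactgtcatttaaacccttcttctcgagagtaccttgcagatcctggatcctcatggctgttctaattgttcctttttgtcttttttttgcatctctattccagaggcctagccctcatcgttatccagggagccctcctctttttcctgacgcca
Atp2a3, chr11:72960919-72961218, plus strand: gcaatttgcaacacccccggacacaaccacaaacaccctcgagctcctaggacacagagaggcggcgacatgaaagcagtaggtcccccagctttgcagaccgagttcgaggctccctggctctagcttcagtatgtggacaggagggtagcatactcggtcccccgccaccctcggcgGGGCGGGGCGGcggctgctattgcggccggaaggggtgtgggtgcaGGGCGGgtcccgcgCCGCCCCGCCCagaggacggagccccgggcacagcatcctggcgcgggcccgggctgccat
The motifs searched on both strands were the CRE (TGACGTCA), the AP-1 site (TGANTCA), the ATF4-C/EBP site (TGATGNAA), the GC box (GGGCGG), the TATA box (TATAAA) and the E-box (CACGTG). The Atp2b4 window matched none of them and held 47.7% G and C with 4 CpG. The Atp2a3 window matched the GC box 5 times, with overlaps, and held 68.3% G and C with 25 CpG. The GC box also matched in windows of Atp2b2 and Atp2c1, which were higher with AVP, and of Atp2b1, which was lower. A window of Atp2c1 matched it 4 times at 73.3% G and C, and another window of that gene matched no motif. The Atp2a1 window matched none either. Any part of these motifs in the fold changes was not tested. Among 32851 promoter windows of the same length the median was 52.7% G and C with 7 CpG. The GC box was present in 35.7% of these windows, the CRE in 1.79%, the AP-1 site in 7.81%, the ATF4-C/EBP site in 3.97%, the TATA box in 13.6% and the E-box in 7.15%. The Atp2b4 start lies inside the span that GENCODE gives the gene, which has other starts, and which start the cells used cannot be read from counts per gene. Windows were found for 6 of the 8 members, and none for Atp2a2 and Atp2b3.

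By a fixed rule, the 5 genes with a mean of at least 5 CPM whose log2 CPM was most like that of Atp2b4 over the 6 libraries were Axl, Smad9, Susd5, Plcb3 and Wwc2, with Pearson correlations of 0.9991 to 0.9999. Axl, a receptor tyrosine kinase gene, was at 15.4, 14.0 and 12.6 CPM with AVP and at 2.13, 1.74 and 1.76 CPM in controls, and so had the same highest library in each group as Atp2b4. For Atp2a3 the 5 genes were Psat1, Ttyh2, Lgi2, Plk3 and Kcnt2, at 0.9979 to 0.9997. Psat1, an enzyme of serine synthesis, was at 248.4, 313.7 and 351.7 CPM with AVP and at 649.6, 667.4 and 665.8 CPM in controls, with the lowest AVP library the same as for Atp2a3. Such values are a description over 6 libraries that share the division into groups. The likeness of library order within a group follows from the rule that picked these genes and is no separate result. Of 10618 genes compared, 13.3% reached 0.95 with Atp2b4 and 10.0% with Atp2a3.

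The other calcium and ion transport genes, in 7 lists, moved in both directions. Of 77 genes tested, 24 rose and 19 fell with AVP and 34 did not pass, so that 55.8% were called, against 57.5% of all tested genes. PMCA subunits and binding partners were 4 higher and 1 lower of 12 (median log2 fold change -0.04). Nptn and Bsg, which encode the obligatory PMCA subunits neuroplastin and basigin, had log2 fold changes of 0.18 (adjusted p = 0.00768) and -0.01 (adjusted p = 0.841) and were named after their values were seen. Strn, a calmodulin-binding scaffold gene, rose to 38.8 ± 2.48 CPM with AVP, against 24.8 ± 1.03 CPM in controls (SD, n = 3 each; edgeR adjusted p = 5.27e-06). Calm3, a calmodulin gene, fell to 604 ± 21.4 CPM, against 912 ± 45.1 CPM in controls, and calmodulin is the protein that activates PMCA pumps.

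SERCA regulators and store buffers were 7 higher and 2 lower of 17 tested (median 0.09). Calr, the calcium-binding chaperone calreticulin of the store, rose to 1408 ± 41.0 CPM with AVP, against 983 ± 23.7 CPM in controls (SD, n = 3 each; edgeR adjusted p = 2.40e-07). Tmem64, which encodes a SERCA2-binding protein, rose by 0.70 on the log2 scale. Hax1, whose product binds SERCA2 and phospholamban, fell by 0.76 on the log2 scale, and Hsp90b1, a calcium-binding store chaperone gene, by 0.52. Pln, the gene of the SERCA inhibitor phospholamban and named after its values were seen, was close to the floor at 33 counts over the AVP libraries and 52 over the control libraries.

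The sodium-calcium exchangers, another route of calcium across membranes, were 3 higher and 2 lower of 9 (median 0.08). Slc8a2 rose to 70.0 ± 10.0 CPM with AVP, against 48.1 ± 3.38 CPM in controls, and Slc24a1 rose by 0.26 on the log2 scale. Slc24a2 fell to 28.7 ± 2.49 CPM, against 48.6 ± 3.21 CPM in controls, and Slc8a3 fell by 0.73 on the log2 scale. Genes of store release and store-operated entry were 5 higher and 6 lower of 14 (median 0.00). The IP3 receptor genes Itpr1 and Itpr3, channels of calcium release, rose by 0.57 and 0.78 on the log2 scale. The remaining IP3 receptor gene, Itpr2, named after its values were seen, fell to 8.98 ± 0.814 CPM with AVP, against 12.1 ± 1.52 CPM in controls (SD, n = 3 each; edgeR adjusted p = 0.0082). Stim1, a sensor of store filling, and Saraf, a brake on store-operated entry, fell by 0.31 and 0.57. The related sensor gene Stim2, named after its values were seen, rose by 0.27 on the log2 scale.

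Golgi calcium and manganese genes were 1 higher and 3 lower of 7 (median -0.14), with Slc39a14, a metal importer gene, rising by 0.49 and the luminal calcium-binding protein genes Nucb1 and Sdf4 falling by 0.42 and 0.23 on the log2 scale. Mitochondrial calcium uptake genes were 2 higher and 5 lower of 12 (median -0.15). Mcur1 and Letm1 rose by 0.42 and 0.23, and Ghitm and Vdac3, a channel of the outer membrane, fell by 0.87 and 0.48. Of the nearest relatives of the calcium pumps, the sodium-potassium and proton pumps and their subunits, 2 of 6 tested genes rose and 0 fell (median 0.05). These were Atp1b1, at 253.5 ± 11.2 CPM with AVP against 123.9 ± 3.38 CPM in controls (SD, n = 3 each; edgeR adjusted p = 2.81e-10), and Atp1b2, both of which encode beta subunits.

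**Figure D5:**
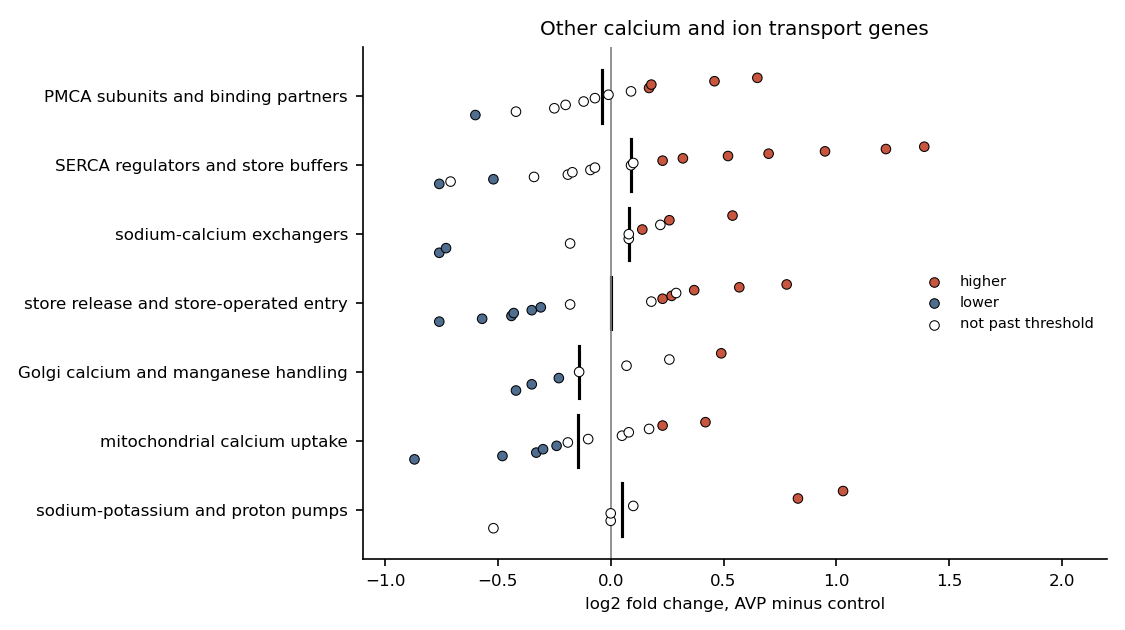
Log2 fold change (AVP minus control) of each tested gene in 7 lists of calcium and ion transport genes; red points rose, blue points fell, white points did not pass an adjusted p under 0.05, and the black line is the list's median. The medians lie between -0.15 and 0.09, with genes on both sides of 0 in every list.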

How the data were processed

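Per the labels' protocols, TRIzol RNA was sequenced on an Illumina platform. The authors deposited raw counts by gene symbol for each sample. The submitters' processing notes name mm10 and GRCm38, and no aligner, counter, annotation or strand setting is stated. Of the rows, 27 carry dates in place of symbols and stayed unnamed.

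Counts were filtered with filterByExpr (minimum count 10), scaled with TMM factors and tested by the robust quasi-likelihood test of edgeR 4.0.16 in R 4.3.3, AVP against control without covariates, with Benjamini-Hochberg adjustment over all tested genes at 0.05. The SE was derived from the fold change and F. The procedure was run on simulated counts with 14059 tested genes, all given the same relative spread. True log2 changes of 0.58, 1 and 2 were put into 67, 67 and 66 genes, and 95.5%, 98.5% and 100% of them were recovered. So few changed genes do not stand for data in which most genes were called, so that case was not tested. Alternatives used DESeq2 1.42.0, limma 3.58.1 and other edgeR settings. No 2 libraries of a group were duplicates (chi-square per degree of freedom 7.47 to 11.2 between AVP libraries and 9.89 to 34.8 between control libraries). Positions and exon lengths come from GENCODE M21 and promoters from RefSeq. Python 3.11.15, pandas 2.3.3 and matplotlib 3.10.9 made tables and plots.

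The members and lists were chosen with earlier results of these data known. Named genes were all 8 members, up to 2 per direction and list with the smallest p past the threshold and a mean of at least 1 CPM, and the 5 genes most like the highest and the lowest member; some genes and sequences that these rules take are not reported here. The floor of 3 counts covers counting error only.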

Additional observations from a re-analysis of the deposited data

How the results depend on the processing

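Of 97 alternative log2 fold changes of single pump genes, 89 kept their direction and their side of the threshold, 2 lost a call (Atp2b1), 5 gained one (Atp2a2) and 1 turned its sign (Atp2a1, which ranged from -0.12 without control replicate 1 to 0.44 without control replicate 2). Over its 14 alternatives Atp2b4 lay between 3.19 and 3.39 and Atp2a3 between -2.33 and -1.92. The number of pump genes lower with AVP was 1 rather than 2 with library size alone, at an adjusted p under 0.01 and against a fold change of 1.2, where Atp2b1 was no longer called. The number higher was 2 rather than 3 against a fold change of 1.2, where Atp2c1 was no longer called, and 4 with library size alone, upper-quartile factors and limma-voom, where Atp2a2 was added. With 1 library left out it ranged from 1 (without AVP replicate 1) to 2, and the number higher from 3 to 4. Against a fold change of 1.2, 2197 genes were higher and 2332 lower in all, and 13 and 10 in the transport lists. With 1 library left out, the genes called higher ranged from 3525 to 4053 and lower from 3592 to 4166, and in the lists from 20 to 25 and from 18 to 28.

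The replicate numbers showed no evident pairing of the samples. Deviations from the group means of same-numbered libraries correlated at 0.0787, -0.0452 and 0.0384. Differently numbered libraries gave -0.0874 to 0.053. Such values cannot exclude that cultures were handled in pairs. In the fit with a replicate block, 3972 genes were higher and 3969 lower, 3 and 2 among the pump genes and 23 and 21 in the lists. Depth limits Atp2b3 and Atp2a1, with 11 and 275 counts in all.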
